A study of Homo sapiens with 6 samples.

Results

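MicroRNA precursor genes were followed through the differentiation of human embryonic stem cells into mesoderm and smooth muscle. A gene was taken as a member when its symbol began with MIR and a number, or with MIRLET7, and did not end in HG, the ending of microRNA host genes. This gave 173 of the 18417 genes tested, 9 of them named MIRLET7, and each was measured by 1 probe set. Total RNA came from WA09, a human embryonic stem cell line in wide use, on 6 arrays with 2 per group. Undifferentiated cells kept in defined medium are called hESC. Nascent mesoderm positive for ISL1 (INM) was taken at day 4 and smooth muscle cells (SMC) at day 21 of culture in the same medium with 25 ng/ml Wnt3a plus 50 ng/ml BMP4. The title of the series sets these profiles beside nucleosome positioning during differentiation. All groups derive from 1 cell line, and the labels do not say whether replicates were separate cultures. The p-values then reflect the spread of these samples alone, and that spread may be technical. Cells were pooled in each sample, so fewer cells of a type and less RNA per cell cannot be told apart.

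The labelled cell types were checked against marker genes. SOX2, a pluripotency factor, had a mean log2 signal of 11.45 ± 0.02 in hESC, 5.72 ± 0.13 in INM and 5.69 ± 0.11 in SMC (SD, n = 2). ISL1, the marker that names INM, stood at 5.41 ± 0.18, 9.51 ± 0.06 and 6.36 ± 0.07, and smooth muscle actin (ACTA2) at 6.42 ± 0.02, 11.41 ± 0.79 and 13.06 ± 0.04. MYH11, the myosin of mature smooth muscle, was not called in any comparison, with SMC at 5.51 ± 0.12 against 5.64 ± 0.18 in hESC. The smooth muscle regulator MYOCD was highest in INM (9.29 ± 0.56) and called lower in SMC (7.55 ± 0.03). TAGLN and CNN1 were called higher in SMC than in hESC, but not from INM to SMC. HAND1 was highest in INM (12.37 ± 0.06), whereas the mesoderm markers GATA4 and PDGFRA were highest in SMC (10.7 ± 0.04 and 10.08 ± 0.03). Among markers of other cell types, the endothelial genes PECAM1 and CDH5 were called higher in SMC than in hESC, by 1.43 and 0.95 on the log2 scale, TEK was not, and the epithelial genes EPCAM and CDH1 were still at 10.11 ± 0.96 and 10.63 ± 0.92 in INM. Blood (PTPRC, SPI1), neural (PAX6, SOX1), cardiac (MYH6, NPPA), skeletal muscle (MYOD1, MYOG) and endoderm (SOX17, FOXA2, AFP) markers were not called in any comparison. The part of these cells in the microRNA signals was not tested.

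A microRNA gene is transcribed as a long primary transcript, often together with neighbouring microRNAs or inside the intron of a host gene. The nuclear enzyme DROSHA with its partner DGCR8 crops the hairpin, DICER1 cuts the hairpin to a short duplex, and an Argonaute protein keeps 1 strand as the mature microRNA. Bases 2 to 8 of the mature strand, the seed, pair with target messages, so genes with a common seed are treated as a family. An expression array of total RNA reports RNA that holds the precursor sequence. A signal given here is therefore not the amount of mature microRNA, and it cannot tell a primary transcript from its hairpin.

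The mature sequences below belong to genes described in the text, and are shown because their seeds define the families compared. No sequence is shown for MIR186 or MIR28, whose mature 5′ strands were not matched. They are human RefSeq entries of build GRCh38.p14, written 5′ to 3′ with the seed in capitals. RefSeq tables matched a hairpin for 155 members and a mature sequence for 164. The first pair belongs to the stem cell cluster on chromosome 4 and shares the seed AAGUGCU.
hsa-miR-302a-3p: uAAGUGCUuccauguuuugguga
hsa-miR-302b-3p: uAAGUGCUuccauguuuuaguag
The let-7 family shares the seed GAGGUAG.
hsa-let-7a-5p: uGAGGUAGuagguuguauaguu
hsa-let-7f-5p: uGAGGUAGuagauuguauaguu
hsa-let-7g-5p: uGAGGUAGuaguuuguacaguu
The miR-181 family shares ACAUUCA.
hsa-miR-181a-5p: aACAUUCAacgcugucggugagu
hsa-miR-181b-5p: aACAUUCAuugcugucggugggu
The neighbours MIR221 and MIR222 share GCUACAU, MIR30E and MIR30A share GUAAACA, and MIR32 and MIR25 share AUUGCAC.
hsa-miR-221-3p: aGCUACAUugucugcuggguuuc
hsa-miR-222-3p: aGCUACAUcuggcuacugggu
hsa-miR-30e-5p: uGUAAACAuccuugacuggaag
hsa-miR-30a-5p: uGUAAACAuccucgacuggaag
hsa-miR-32-5p: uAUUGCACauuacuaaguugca
hsa-miR-25-3p: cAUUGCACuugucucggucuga
The remaining sequences shown have other seeds.
hsa-miR-218-5p: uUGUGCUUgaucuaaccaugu
hsa-miR-503-5p: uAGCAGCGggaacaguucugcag
hsa-miR-125b-5p: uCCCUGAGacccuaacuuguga
hsa-miR-100-5p: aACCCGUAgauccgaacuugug
hsa-miR-21-5p: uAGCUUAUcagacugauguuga
hsa-miR-200c-3p: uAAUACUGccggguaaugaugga
hsa-miR-19b-3p: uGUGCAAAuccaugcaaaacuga

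Values are RMA signals on the log2 scale, so a difference of 1 is a doubling of signal. Calls were made where the adjusted p was under 0.05 (limma over the 3 groups, Benjamini-Hochberg over all 18417 genes), and "rose" and "fell" are used of called changes. Most microRNA genes gave low signals. The median over the 173 members was 4.90 and 4.77 on the hESC arrays, 4.49 and 4.31 on the INM arrays, and 4.73 and 4.62 on the SMC arrays, against medians of 7.10 to 7.19 for all named genes. Of the members, 88 had every group mean under 5.04, the lowest array median of the probe sets that carry no gene name. That limit was set with the data in view. A fold is given only where both group means lay above that limit, and otherwise only the log2 change of the signal. The arrays of a group lay more than 1 apart for 0 members in hESC and in SMC, and for 4 in INM: MIR181B1, MIR21, MIR221 and MIR302B.

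In INM compared with hESC, which asks what happened over the first 4 days, 60 of the 173 microRNA genes fell (34.7%) and 1 rose, MIR30A (0.578%). Over all genes tested, 14.8% were called lower and 18.9% higher. The median change of the members was -0.29, against -0.03 for all named genes. In SMC compared with INM, which asks what happened between day 4 and day 21, 22 members rose (12.7%) and 1 fell, again MIR30A. Over all genes 9.94% were called higher and 11.1% lower. The members' median was 0.14, against -0.02. In SMC compared with hESC 11 rose (6.36%) and 30 fell (17.3%), beside 19.7% and 17.6% of all genes, with medians of -0.15 and -0.05. These comparisons share arrays, so their counts are not independent of each other. In all, 61 of 173 members were called in either direction in INM against hESC (33.8% of all genes), 23 of 173 in SMC against INM (21.0%) and 41 of 173 in SMC against hESC (37.2%). The F test over the 3 groups called 63 members, 36.4% beside 45.5% of all genes, and 95 were called in no pairwise comparison. Both INM arrays lay below both hESC arrays for 109 members (34.9% of all genes) and above for 10 (33.3%). Both SMC arrays lay above both INM arrays for 77 (29.4%) and below for 15 (32.6%), and above both hESC arrays for 24 (35.0%) and below for 75 (40.3%). With 1 array left out in turn, 17 of the 60 falls in INM, 9 of the 22 rises from INM to SMC, and 7 of 11 rises and 7 of 30 falls from hESC to SMC were kept in all 6 fits.

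The small downward step at day 4 was also seen in the unnamed probe sets and in the small nucleolar RNA genes. The 12083 unnamed probe sets had median changes of -0.30, 0.15 and -0.17 in the same 3 comparisons, close to the microRNA medians. The 175 small nucleolar RNA genes, which guide the chemical modification of other RNAs, had -0.76, 0.11 and -0.63. When each array was centred on its unnamed probe sets, 58 microRNA genes were called higher and 13 lower in INM than in hESC. Over all genes 62.1% were then called higher and 3.99% lower, with a median of 0.53. With the same centring 15 were higher and 10 lower in SMC than in INM, and 27 higher and 10 lower in SMC than in hESC. Beside these stood 6.04% and 27.1% of all genes in SMC against INM, and 35% and 8.9% in SMC against hESC. These shares of all genes hold wherever this centring is named below. When the median change of the unnamed probe sets was held at 0, the INM counts were 12 higher and 24 lower, and the SMC to hESC counts 17 and 14. Over all genes the shares were 36.4% and 6.7% in INM, and 26.6% and 11.9% in SMC against hESC. The sign of the members' median change therefore depended on the scaling. Its distance from the median of all genes could not change under either centring, because each moves all genes of an array by 1 amount. In INM the members' median was -0.29 as deposited, 0.27 centred and 0.02 held at 0, where all genes had -0.03, 0.53 and 0.28. From INM to SMC it was 0.14, -0.11 and 0, against -0.02, -0.27 and -0.16. Quantile normalization can change that distance, and the medians then lay closer together. The members had -0.17 in INM against -0.04 for all genes, and 0.09 from INM to SMC against -0.01. The first centring also exceeded the step of -0.30. Medians of the unnamed probe sets were 5.62 and 5.65 on hESC arrays, and 5.11 and 5.04 on INM arrays. Whether the shared step lies in the RNA or in the signal processing was not tested. The counts also moved with single arrays: without hESC replicate 1, 21 members were called lower in INM, and without hESC replicate 2, 33. The genes described next are those whose change was large beside this step, or that the gene lists name.

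**Figure D1:**
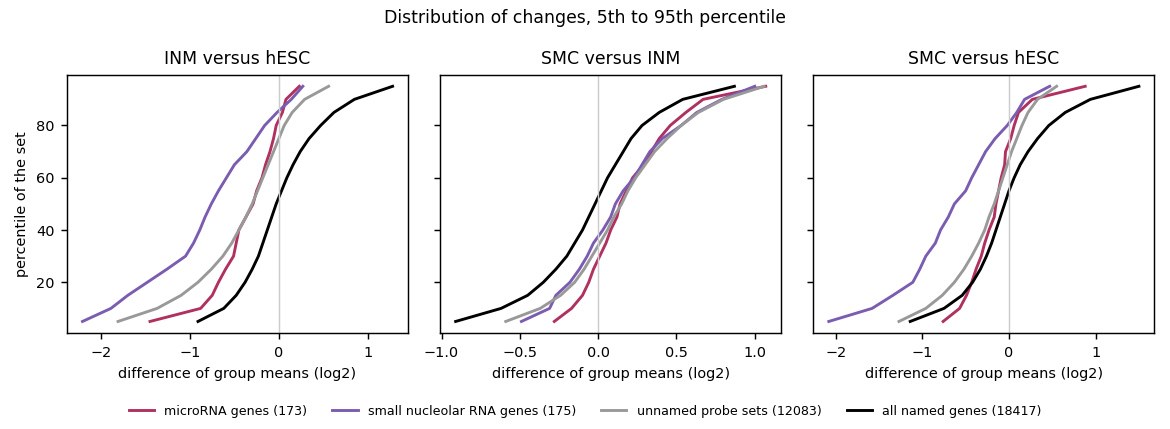
Distribution of changes in the 3 comparisons. The horizontal axis is the log2 difference between group means and the vertical axis the percentile within a set; lines stand for the 173 microRNA genes, 175 small nucleolar RNA genes, 12083 unnamed probe sets and 18417 named genes. The medians of the microRNA genes and of the unnamed probe sets were -0.29 and -0.30 in INM versus hESC, against -0.03 for all named genes, and 0.14 and 0.15 in SMC versus INM, against -0.02.

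The miR-302 genes showed the greatest falls among the members. They belong to a cluster on chromosome 4 that is highly expressed in human pluripotent cells. MIR302B, whose hairpin lies at chr4:112648485-112648557 on the minus strand, gave signals of 10.09 and 10.31 in hESC, 2.10 and 3.69 in INM, while SMC had 2.51 and 2.10. Both hESC arrays stood far above all 4 arrays of differentiated cells. Against hESC, INM differed by -7.30 (SE 0.47, adjusted p = 1.7e-04) and SMC by -7.89 (SE 0.47, adjusted p = 7.1e-05) in log2 signal. MIR302A, at chr4:112648183-112648251 on the same strand, gave 9.10 and 9.36 in hESC, 2.30 and 2.96 in INM, while SMC had 2.38 and 2.71. Its changes were -6.60 (SE 0.24, adjusted p = 2.8e-05) and -6.68 (SE 0.24, adjusted p = 1.9e-05). Between INM and SMC the MIR302A and MIR302B signals overlapped, with changes of -0.09 (SE 0.24, adjusted p = 0.839) and -0.59 (SE 0.47, adjusted p = 0.428). The other 5 listed genes of the MIR302 and MIR367 group, and all 4 of the MIR371A to MIR373 cluster, had no probe set of their own here. Of the primate-specific chromosome 19 cluster (C19MC), 2 of 46 listed genes were measured, MIR516B1 and MIR516B2, and neither was called.

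The hairpin of MIR302B is printed with the mature 3′ arm in capitals, followed by that of MIR302A, to show how alike these arms are. The capitals differ only in their last bases.
MIR302B: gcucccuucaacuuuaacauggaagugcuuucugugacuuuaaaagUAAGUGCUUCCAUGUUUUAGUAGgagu
MIR302A: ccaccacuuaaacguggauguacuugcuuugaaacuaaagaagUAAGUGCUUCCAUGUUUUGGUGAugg

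Genes of the miR-17/92 cluster and its paralogs, which promote cell division, were lower at day 4 in part: of 6 measured members of 15 listed, 4 fell in INM (MIR19B2, MIR25, MIR92A2 and MIR93), 3 were still lower in SMC than in hESC (MIR19B2, MIR25 and MIR93), and none changed between INM and SMC. Against hESC 14.8% of all genes were lower in INM and 17.6% in SMC, beside 34.7% and 17.3% of all members. MIR19B2 gave 4.68 and 4.69 in hESC, 2.76 and 3.28 in INM, while SMC had 3.42 and 2.86. Its hESC arrays lay above the other 4, and the change was -1.66 (SE 0.24, adjusted p = 0.00295) in INM and -1.54 (SE 0.24, adjusted p = 0.00292) in SMC. MIR25, of the MIR25, MIR93 and MIR106B cluster inside MCM7, gave 8.35 and 8.01 in hESC, 7.59 and 7.43 in INM, while SMC had 7.33 and 7.32. It fell 1.59-fold in INM (-0.67 in log2, SE 0.15, adjusted p = 0.0154) and stood 1.81-fold lower in SMC than in hESC, at -0.85 (SE 0.15, adjusted p = 0.00503). MIR93 changed by -0.75 (SE 0.18, adjusted p = 0.0193) in INM and by -0.63 (SE 0.18, adjusted p = 0.0316) in SMC. With each array centred on the unnamed probe sets, MIR19B2 was the only listed gene still called lower in INM, MIR106A and MIR106B were called higher, and MIR19B2 and MIR25 were still called lower in SMC. Without hESC replicate 1 the INM calls of MIR25 (adjusted p = 0.0906) and MIR93 (adjusted p = 0.121) ended, and without hESC replicate 2 that of MIR92A2 (adjusted p = 0.0528). The SMC call of MIR93 also ended without hESC replicate 1 (adjusted p = 0.178), SMC replicate 1 (adjusted p = 0.0879) and SMC replicate 2 (adjusted p = 0.178).

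The miR-200 family restrains the epithelial to mesenchymal transition through the repressors ZEB1 and ZEB2. The list used here had 6 measured genes, of which 5 are of the family (MIR200A, MIR200B, MIR200C, MIR141 and MIR429), while the epithelial MIR203A has another seed and was not called in any comparison. MIR200C and MIR141 fell in INM, and MIR200C was lower in SMC than in hESC, where 14.8% and 17.6% of all genes were called lower. MIR200C, at chr12:6963699-6963766, gave 5.73 and 5.94 in hESC, 4.59 and 4.75 in INM, while SMC had 4.80 and 4.97. All hESC values lay above the other 4, with a change of -1.16 (SE 0.14, adjusted p = 0.00144) in INM and -0.95 (SE 0.14, adjusted p = 0.00232) in SMC. Both calls of MIR200C were kept in every fit with 1 array left out and under every scaling tried. The INM fall of MIR141 ended without hESC replicate 1 (adjusted p = 0.221), INM replicate 1 (adjusted p = 0.0674) or either SMC array (adjusted p = 0.0971). The median of the 6 genes in INM was -0.37 as deposited and 0.19 with unnamed probe sets as the centre, where MIR200B was called higher.

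**Figure D2:**
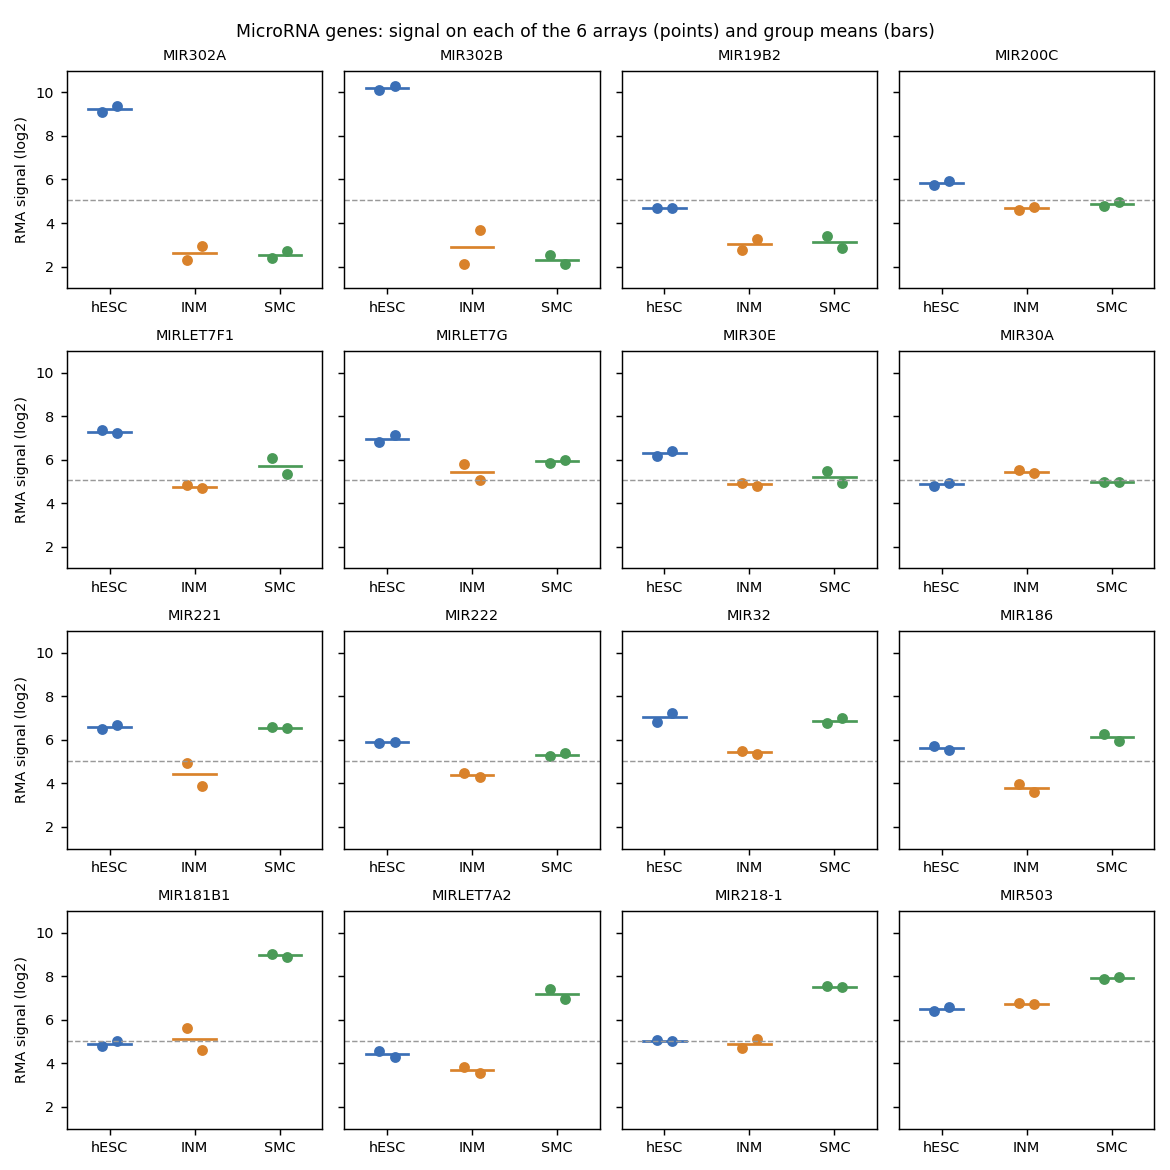
Log2 signal of 16 microRNA genes on each array. Each panel is 1 gene, the horizontal axis gives the group and the vertical axis the RMA signal on the log2 scale, points are single arrays, bars are group means, and the dashed line marks 5.04, the lowest median of unnamed probe sets on any array. MIR302A and MIR302B lie at 9.10 to 10.31 in hESC and at 2.10 to 3.69 elsewhere, whereas MIR181B1 lies at 8.91 and 9.02 in SMC alone.

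The let-7 microRNAs accumulate as cells differentiate and repress early developmental genes, and LIN28A and LIN28B block the maturation of their precursors in stem cells. Of the 10 measured genes with the let-7 seed, 7 fell in INM (MIRLET7A1, MIRLET7A2, MIRLET7D, MIRLET7E, MIRLET7F1, MIRLET7G and MIRLET7I), with changes over the 10 from -2.52 to -0.17 and a median of -0.70. In SMC compared with INM 3 rose, MIRLET7A2, MIRLET7F1 and MIRLET7F2. In SMC compared with hESC 1 was higher, MIRLET7A2, and 3 were lower, MIRLET7F1, MIRLET7G and MIRLET7I. Over all genes 14.8% fell in INM and 9.94% rose from INM to SMC. Of all genes 19.7% were higher and 17.6% lower in SMC than in hESC. With each array centred on the unnamed probe sets, MIRLET7F1 and MIRLET7G were the let-7 seed genes still called lower in INM, and the seed group's median there was -0.14. Under that centring the rise of MIRLET7A2 from INM to SMC was kept, and those of MIRLET7F1 and MIRLET7F2 were not. Against hESC the SMC calls of MIRLET7A2, MIRLET7F1 and MIRLET7G were kept, and that of MIRLET7I was not. As deposited, INM falls ended without hESC replicate 1 for MIRLET7A1 (adjusted p = 0.117), and without hESC replicate 1, hESC replicate 2 or INM replicate 2 for MIRLET7E (adjusted p from 0.0640 to 0.153) and MIRLET7I (adjusted p from 0.0566 to 0.155). The lower SMC signal of MIRLET7I ended without either hESC array or SMC replicate 2 (adjusted p from 0.0810 to 0.116), and the rise of MIRLET7F2 without either SMC array (adjusted p = 0.195 and 0.116).

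MIRLET7F1, at chr9:94176347-94176433, gave 7.35 and 7.22 in hESC, 4.82 and 4.71 in INM, while SMC had 6.07 and 5.34. The 3 groups did not overlap, with INM the lowest. The signal changed by -2.52 (SE 0.23, adjusted p = 6.0e-04) in INM, by 0.94 (SE 0.23, adjusted p = 0.0331) from INM to SMC, and by -1.58 (SE 0.23, adjusted p = 0.00250) from hESC to SMC. Its neighbours MIRLET7A1 and MIRLET7D, on the same strand within 10000 bases, fell in INM by 0.68 (SE 0.16, adjusted p = 0.0195) and 0.94 (SE 0.17, adjusted p = 0.00708). MIRLET7G gave 6.81 and 7.13 in hESC, 5.79 and 5.05 in INM, while SMC had 5.85 and 5.99. It fell 2.92-fold in INM (log2 change -1.55, SE 0.25, adjusted p = 0.00475). Its lower level in SMC than in hESC, -1.05 (SE 0.25, adjusted p = 0.0171), was no longer called without hESC replicate 1 (adjusted p = 0.0541), hESC replicate 2 (adjusted p = 0.111), SMC replicate 1 (adjusted p = 0.105) or SMC replicate 2 (adjusted p = 0.0778). The rise of MIRLET7F1 from INM to SMC ended without hESC replicate 1 or 2 (adjusted p = 0.0773 each) and without SMC replicate 1 (adjusted p = 0.113).

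MIRLET7A2 went the other way at day 21. It gave 4.56 and 4.28 in hESC, 3.84 and 3.56 in INM, while SMC had 7.44 and 6.96, and both SMC arrays stood above the other 4. Its signal changed by 3.50 (SE 0.20, adjusted p = 1.7e-04) from INM to SMC and by 2.78 (SE 0.20, adjusted p = 1.5e-04) from hESC to SMC. Its fall in INM, -0.72 (SE 0.20, adjusted p = 0.0334), ended without either hESC array (adjusted p = 0.187 and 0.0770) or INM replicate 2 (adjusted p = 0.0627). MIRLET7A1 encodes the same mature let-7a as MIRLET7A2 from chromosome 9, and its signal was 4.90 and 4.55 in hESC, 4.07 and 4.04 in INM, while SMC had 4.30 and 4.56. The MIRLET7A1 change from INM to SMC was 0.38 (SE 0.16, adjusted p = 0.151). The hairpins of both copies were 75.0% identical, and they are printed with mature let-7a in capitals because the loops and 3′ arms outside it are what distinguishes them.
MIRLET7A1: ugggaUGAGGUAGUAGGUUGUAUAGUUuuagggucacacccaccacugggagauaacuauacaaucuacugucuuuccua
MIRLET7A2: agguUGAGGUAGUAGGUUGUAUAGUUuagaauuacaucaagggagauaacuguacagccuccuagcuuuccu

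MIRLET7A2 lies on the minus strand at chr11:122146522-122146593, between MIR125B1 (chr11:122099757-122099844) and MIR100 (chr11:122152229-122152308), and the 3 genes rose together in SMC. MIR125B1 gave 4.25 and 4.32 in hESC, 4.18 and 4.27 in INM, while SMC had 5.43 and 5.17. Its SMC signal exceeded that of INM by 1.08 (SE 0.13, adjusted p = 0.00266) and that of hESC by 1.02 (SE 0.13, adjusted p = 0.00147). MIR100 gave 2.38 and 2.40 in hESC, 2.29 and 2.40 in INM, while SMC had 3.25 and 3.43, which was 0.99 above INM (SE 0.12, adjusted p = 0.00253). In each of these 3 genes both SMC arrays exceeded all others, and the SMC calls were kept under every alternative that tested them. The paralogous run of MIR99A and MIRLET7C on chromosome 21 was not called, with median changes of -0.22, 0.17 and -0.05 in the 3 comparisons in the order above. In the run of MIR99B, MIRLET7E and MIR125A on chromosome 19, MIR99B and MIRLET7E fell in INM and MIR125A was lower in SMC than in hESC. The call of MIR99B ended without any 1 array but INM replicate 1 (adjusted p from 0.0616 to 0.206), and that of MIR125A without either hESC array or SMC replicate 1 (adjusted p from 0.0708 to 0.192).

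**Figure D3:**
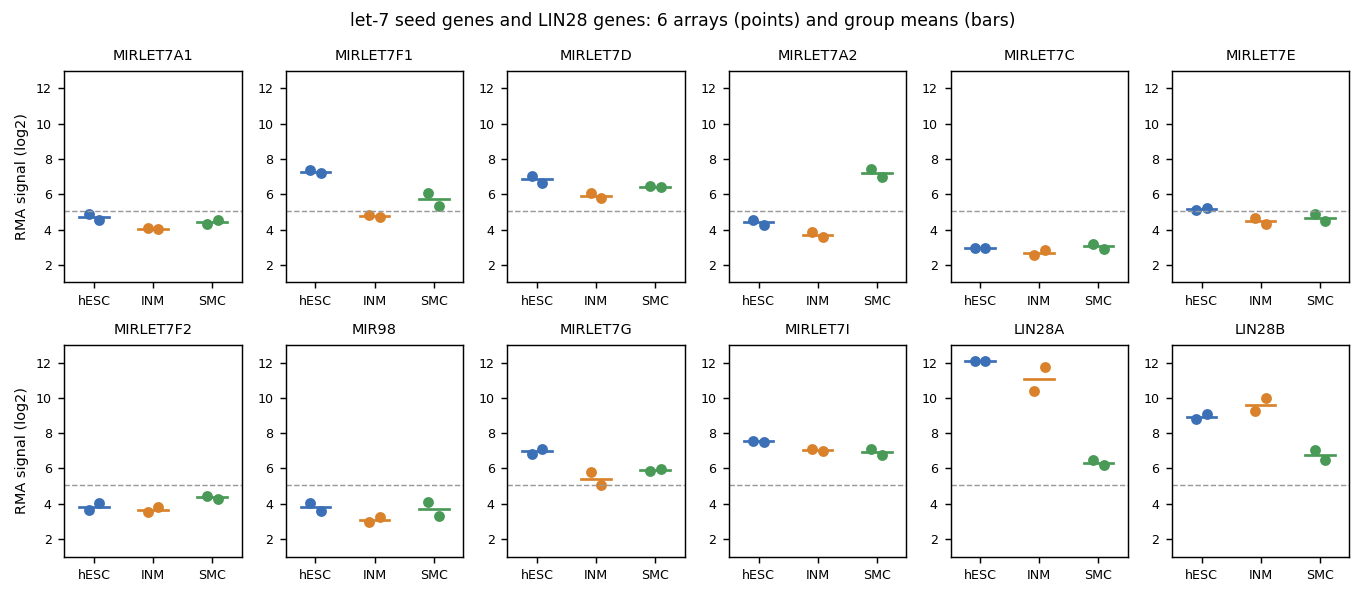
Log2 signal of the 10 measured genes with the let-7 seed, and of LIN28A and LIN28B, on each array. Each panel is 1 gene, points are single arrays by group, bars are group means, the vertical axis is the RMA signal on the log2 scale, and the dashed line marks 5.04, the lowest median of unnamed probe sets on any array. MIRLET7A2 is the gene whose SMC arrays (7.44 and 6.96) stand well above its hESC arrays (4.56 and 4.28), while MIRLET7F1 falls from 7.35 and 7.22 to 4.82 and 4.71 in INM.

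A set of 12 genes fell in INM and then rose in SMC, and for 8 of them SMC was not called different from hESC. Over all genes 14.8% fell in INM and 9.94% rose from INM to SMC, but the share that did both was not counted. Both steps use the same INM arrays, so low values there favour both calls at once. MIR221 and MIR222 lie next to each other on the X chromosome, and in vascular smooth muscle they are known for promoting proliferation. MIR221 gave 6.50 and 6.70 in hESC, 4.94 and 3.89 in INM, while SMC had 6.58 and 6.52. The INM arrays lay below all 4 others but 1.05 apart, and hESC and SMC overlapped. MIR221 changed by -2.19 (SE 0.31, adjusted p = 0.00311), then by 2.14 (SE 0.31, adjusted p = 0.00532), and by -0.04 (SE 0.31, adjusted p = 0.926) from hESC to SMC. The second step was lost without SMC replicate 1 (adjusted p = 0.0546) or SMC replicate 2 (adjusted p = 0.0530). MIR222 gave 5.87 and 5.91, 4.49 and 4.30, and 5.26 and 5.38, with changes of -1.49 (SE 0.12, adjusted p = 3.8e-04) and 0.93 (SE 0.12, adjusted p = 0.00365). MIR222 remained lower in SMC than in hESC by -0.56 (SE 0.12, adjusted p = 0.0122), a call that ended without any 1 of the hESC or SMC arrays (adjusted p from 0.0563 to 0.0952).

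MIR186 followed the same course, with 5.70 and 5.55 in hESC, 3.98 and 3.60 in INM, while SMC had 6.28 and 5.96. It changed by -1.83 (SE 0.18, adjusted p = 7.1e-04) and then by 2.33 (SE 0.18, adjusted p = 4.7e-04), and its SMC arrays lay above those of hESC without a call (0.50, SE 0.18, adjusted p = 0.0690). MIR32 gave 6.83 and 7.22 in hESC, 5.50 and 5.36 in INM, while SMC had 6.75 and 6.99. It fell 3.02-fold (log2 change -1.59, SE 0.17, adjusted p = 9.7e-04) and rose 2.71-fold (1.44, SE 0.17, adjusted p = 0.00228), which brought SMC back into the range of hESC. MIR32 shares its seed with MIR25 and MIR92A2. All 3 genes of that seed fell in INM as deposited, MIR32 alone was called lower with the unnamed probe sets as the centre, and MIR32 alone rose in SMC. MIR28 gave 3.80 and 3.63, 2.90 and 2.53, and 3.76 and 3.63, low signals with changes of -1.0 (SE 0.16, adjusted p = 0.00433) and 0.98 (SE 0.16, adjusted p = 0.00745). Its second step was lost without SMC replicate 1 (adjusted p = 0.0742) or SMC replicate 2 (adjusted p = 0.0578). MIR365A gave 5.69 and 5.80, 4.76 and 4.63, and 5.36 and 5.25, a fall of 1.05 and a rise of 0.61, the rise lost without SMC replicate 1 (adjusted p = 0.115) or SMC replicate 2 (adjusted p = 0.0852). MIR181A1 also belongs to these genes and is described with its family.

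The miR-30 family, named in heart and muscle for limiting connective tissue growth factor, split at day 4. MIR30E, at chr1:40754355-40754446, gave 6.17 and 6.40 in hESC, 4.94 and 4.79 in INM, while SMC had 5.47 and 4.92. It fell by 1.42 (SE 0.20, adjusted p = 0.00287) in INM and stood at -1.09 (SE 0.20, adjusted p = 0.00607) in SMC against hESC, the latter no longer called without hESC replicate 2 (adjusted p = 0.0530). MIR30C1, its neighbour, and MIR30C2 fell too and were lower in SMC than in hESC. The INM fall of MIR30C2 ended without hESC replicate 2 (adjusted p = 0.0657). The SMC calls ended without any 1 of the hESC or SMC arrays for MIR30C1 (adjusted p from 0.0561 to 0.177), and without hESC replicate 2 or SMC replicate 2 for MIR30C2 (adjusted p = 0.108 and 0.127). MIR30A, at chr6:71403551-71403621, gave 4.81 and 4.94 in hESC, 5.51 and 5.37 in INM, while SMC had 4.97 and 4.97, so that its INM arrays were the highest. It was the member that rose in INM, by 0.56 (SE 0.12, adjusted p = 0.0123), and it fell by 0.47 (SE 0.12, adjusted p = 0.0335) in SMC. The rise ended without hESC replicate 1 (adjusted p = 0.0863), and the fall without hESC replicate 1 or 2 (adjusted p = 0.0664 each), SMC replicate 1 (adjusted p = 0.169) or SMC replicate 2 (adjusted p = 0.175). MIR30B, for which no mature sequence was matched, gave low signals of 2.61 and 2.5 in INM and 3.08 and 2.95 in SMC, a rise of 0.46 (SE 0.13, adjusted p = 0.0464) that ended without any 1 array but INM replicate 1 (adjusted p from 0.0738 to 0.244). MIR30D was not called in any comparison as deposited. With each array centred on the unnamed probe sets, MIR30E was the only miR-30 gene still called lower than in hESC, in both INM and SMC. Both calls of MIR30A were kept there, and the rise of MIR30B was not.

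From INM to SMC the greatest rises were those of MIR181B1, MIRLET7A2 and MIR218-1. Among 20 measured genes of mesenchymal and HOX-cluster microRNAs, 7 rose from INM to SMC, 0 fell and 13 were not called. Over all genes 9.94% rose and 11.1% fell in that step. Against hESC 6 were higher in SMC (19.7% of all genes) and 6 were lower in INM (14.8% of all genes and 34.7% of all members). Under the unnamed-probe-set centring the SMC to INM count was 6 higher and 0 lower, beside 6.04% and 27.1% of all genes. The INM to hESC count became 9 higher and 0 lower, beside 62.1% and 3.99% of all genes. Besides MIR31 and MIR181A1, the genes lower in INM as deposited were MIR196A1 (-0.78, SE 0.13, adjusted p = 0.00616), which lies in a HOX cluster, MIR29A (-0.63, SE 0.18, adjusted p = 0.0358), known for repressing collagen genes, and the p53-induced MIR34A (-0.78, SE 0.24, adjusted p = 0.0438) and MIR34B (-0.82, SE 0.20, adjusted p = 0.0212). These calls ended without hESC replicate 1 (adjusted p from 0.0545 to 0.234), and all but that of MIR196A1 also without hESC replicate 2 (adjusted p from 0.0587 to 0.183). Those of MIR29A and MIR34A ended without INM replicate 1 or either SMC array too (adjusted p from 0.0694 to 0.0910). MIR199A1 was higher in SMC than in hESC (0.79, SE 0.25, adjusted p = 0.0494), a call lost without hESC replicate 1 (adjusted p = 0.223), hESC replicate 2 (adjusted p = 0.123) or SMC replicate 1 (adjusted p = 0.257). MIR181B1, at chr1:198858873-198858982 on the minus strand, gave 4.78 and 5.01 in hESC, 5.65 and 4.62 in INM, while SMC had 9.02 and 8.91. Both SMC arrays lay more than 3 above every other array. It rose 14.2-fold from INM (log2 change 3.83, SE 0.31, adjusted p = 6.0e-04) and by 4.07 from hESC (SE 0.31, adjusted p = 1.9e-04). MIR181A1, its direct neighbour on the same strand, gave 3.78 and 3.60, 2.73 and 2.81, and 3.60 and 4.07. It fell by 0.92 (SE 0.18, adjusted p = 0.00884), then rose by 1.06 (SE 0.18, adjusted p = 0.00816), and SMC differed from hESC by 0.14 (SE 0.18, adjusted p = 0.556). The MIR181A1 steps ended without hESC replicate 1 (adjusted p = 0.0722) and without SMC replicate 2 (adjusted p = 0.0545), respectively.

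The second miR-181 locus, on chromosome 9, rose as well but by less. MIR181B2 gave 5.04 and 5.37, 5.85 and 5.46, and 6.34 and 6.31, and was 2.17-fold higher in SMC than in hESC (log2 change 1.12, SE 0.18, adjusted p = 0.00344), a call kept under every alternative. MIR181A2 gave 5.19 and 5.26, 5.55 and 5.13, and 5.99 and 6.41, and was 1.97-fold higher in SMC than in hESC (0.98, SE 0.20, adjusted p = 0.00868). This call ended without hESC replicate 1 (adjusted p = 0.0645), hESC replicate 2 (adjusted p = 0.0520) or SMC replicate 2 (adjusted p = 0.0663). The rises from INM of MIR181A2 (0.86, SE 0.20, adjusted p = 0.0252) and MIR181B2 (0.67, SE 0.18, adjusted p = 0.0409) ended without either hESC or either SMC array, with adjusted p from 0.0550 to 0.164 and from 0.0631 to 0.191. That of MIR181B2 also ended without INM replicate 2 (adjusted p = 0.0660). The family member MIR181C was not called in any comparison. The miR-181 microRNAs are known as regulators of lymphocyte and vascular signalling.

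MIR218-1 and MIR503 rose in SMC with their host genes. MIR218-1, at chr4:20528275-20528384 inside the axon guidance gene SLIT2, gave 5.07 and 5.02 in hESC, 4.69 and 5.14 in INM, while SMC had 7.56 and 7.51. It changed by 2.62 (SE 0.16, adjusted p = 2.2e-04) from INM to SMC and by 2.49 (SE 0.16, adjusted p = 1.0e-04) from hESC to SMC. SLIT2 gave 7.51 and 7.65, 8.4 and 9.63, and 11.13 and 11.07, and was already higher in INM (1.43, SE 0.36, adjusted p = 0.0231), when MIR218-1 was not (-0.14, SE 0.16, adjusted p = 0.554). The INM rise of SLIT2 ended without hESC replicate 1 (adjusted p = 0.129), hESC replicate 2 (adjusted p = 0.0963) or either SMC array (adjusted p = 0.0557). SLIT2 rose by 2.09 more in SMC (adjusted p = 0.00919), a step lost without SMC replicate 1 (adjusted p = 0.0771) or 2 (adjusted p = 0.0764). The second copy of this microRNA, MIR218-2, encodes the same mature strand inside SLIT3, and was not called in any comparison although SLIT3 rose by 3.04 in INM.

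MIR503, of the miR-15/107 group that restrains the cell cycle, gave 6.42 and 6.59 in hESC, 6.76 and 6.72 in INM, while SMC had 7.88 and 7.99. It rose 2.28-fold from INM (1.19, SE 0.12, adjusted p = 0.00130) and 2.68-fold from hESC (1.42, SE 0.12, adjusted p = 2.7e-04). Its host transcript MIR503HG rose by 1.35 (adjusted p = 7.7e-04) from INM and 0.97 (adjusted p = 0.00119) from hESC. In INM MIR503HG was lower than in hESC (-0.38, adjusted p = 0.0465) while MIR503 changed by 0.23 (adjusted p = 0.183). That host call ended without hESC replicate 1 (adjusted p = 0.105), hESC replicate 2 (adjusted p = 0.200), INM replicate 1 (adjusted p = 0.0815) or either SMC array (adjusted p = 0.0952), and had the opposite sign, 0.17, with the unnamed probe sets as the centre. MIR31 gave 6.01 and 5.73, 5.42 and 5.22, and 6.01 and 6.26, a fall of 0.55 (SE 0.16, adjusted p = 0.0362) and a rise of 0.82 (SE 0.16, adjusted p = 0.0139), which left SMC within reach of hESC (0.27, SE 0.16, adjusted p = 0.225). The fall of MIR31 ended without any 1 of 5 arrays, all but INM replicate 1 (adjusted p from 0.0618 to 0.198), and had the opposite sign, 0.01, with unnamed probe sets as the centre. Its rise ended without SMC replicate 1 (adjusted p = 0.0577) or SMC replicate 2 (adjusted p = 0.117). The host transcript MIR31HG rose by 2.53 (adjusted p = 1.2e-04) from INM and by 3.12 (adjusted p = 2.4e-05) from hESC. In INM, where MIR31 fell, MIR31HG was higher than in hESC by 0.59 (adjusted p = 0.0129), a call that ended without hESC replicate 1 (adjusted p = 0.0551) or hESC replicate 2 (adjusted p = 0.0828).

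Of the muscle list, 13 of 24 genes were measured, and no striated-muscle gene showed a large change. In INM 4 fell (MIR221, MIR222, MIR23A and MIR28) and 0 rose. From INM to SMC 4 rose (MIR206, MIR221, MIR222 and MIR28), and against hESC 2 were higher in SMC (MIR133B and MIR21) and 2 lower (MIR222 and MIR23A). Over all genes 14.8% fell in INM and 9.94% rose from INM to SMC, beside 34.7% and 12.7% of all members. Of all genes 19.7% were higher and 17.6% lower in SMC than in hESC. MIR133B, made in heart and skeletal muscle, was 1.78-fold higher in SMC than in hESC (0.83, SE 0.20, adjusted p = 0.0189). That call ended without hESC replicate 1 (adjusted p = 0.0545), hESC replicate 2 (adjusted p = 0.118) or SMC replicate 1 (adjusted p = 0.105). MIR206 rose by 0.56 from INM (SE 0.13, adjusted p = 0.0262), a call lost without any 1 of the hESC or SMC arrays (adjusted p from 0.0640 to 0.175). MIR23A fell by 0.68 in INM (SE 0.14, adjusted p = 0.0109), a call lost without either hESC array (adjusted p = 0.0596 and 0.0725), and its SMC call was lost without any 1 of the hESC or SMC arrays (adjusted p from 0.0974 to 0.138). With the unnamed probe sets as the centre 5 genes of the muscle list were higher and 3 lower in INM, beside 62.1% and 3.99% of all genes. MIR1-1 was called higher there. As deposited MIR1-1 and MIR208A were not called. MIR21, induced in injured vessels, gave 5.84 and 5.81 in hESC, 7.91 and 5.75 in INM, while SMC had 8.19 and 8.04. INM replicate 1 lay near the SMC arrays and INM replicate 2 at the hESC level. MIR21 was 4.88-fold higher in SMC than in hESC (2.29, SE 0.61, adjusted p = 0.0261), and this call was lost without any 1 of the hESC or SMC arrays (adjusted p from 0.111 to 0.128). Against INM it was not called in either direction (1.0 and 1.28, SE 0.61, adjusted p = 0.248 and 0.189). The smooth muscle pair MIR143 and MIR145, with the cardiac and vascular transcript CARMN, lies on probe sets with several symbols, as do MIR214 and MIR199A2 with DNM3OS, so they name no gene and were not analysed here. In all, 32 probe sets with several symbols hold a microRNA.

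A host gene with a probe set of its own was found for 60 members, in 51 hosts, as the smallest RefSeq gene on the same strand that contains the hairpin. In INM compared with hESC 22 of the called members had such a host. The host was called in the same direction for 1 of them, in the opposite direction for 7, and not called for 14. All of these members fell and they lie in 20 hosts. An opposite call is thus a host that rose, as 18.9% of all genes did, and 14.8% of all genes fell. For 6 called members in SMC against INM these counts were 3, 1 and 2, and for 16 in SMC against hESC they were 5, 2 and 9. Of all genes 9.94% were higher and 11.1% lower in SMC against INM, and 19.7% and 17.6% in SMC against hESC. Across the 60 pairs, which share arrays and in part a host, Pearson's r of the changes was 0.08, 0.34 and 0.43, given as a description. MIR32 lies in TMEM245, which changed by 0.11 while MIR32 fell, and by -0.69 (adjusted p = 0.0197) while MIR32 rose, a host call lost without any 1 of the hESC or SMC arrays (adjusted p from 0.0536 to 0.137). MIRLET7G lies in WDR82, which rose by 0.48 (adjusted p = 0.0197) while MIRLET7G fell, a host call lost without either hESC or either SMC array (adjusted p from 0.0525 to 0.121). MIR186 lies in ZRANB2, which fell in INM too, by 0.69 (adjusted p = 0.0243), and changed by 0.49 (adjusted p = 0.0999) in the step to SMC. The ZRANB2 call ended without hESC replicate 1 (adjusted p = 0.0691), hESC replicate 2 (adjusted p = 0.136) or either SMC array (adjusted p = 0.0545). MIR30E lies in NFYC, a subunit of the CCAAT-binding factor, which changed by -0.06 in INM. MIR25 lies in MCM7, a subunit of the replicative helicase, which fell by 1.35 (adjusted p = 0.00355) from INM to SMC while MIR25 changed by -0.18, and against hESC both were lower in SMC, MCM7 by -1.16 (adjusted p = 0.00303) and MIR25 by -0.85. The host found for MIR21 was VMP1, an autophagy gene, which was not called in any comparison.

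**Figure D4:**
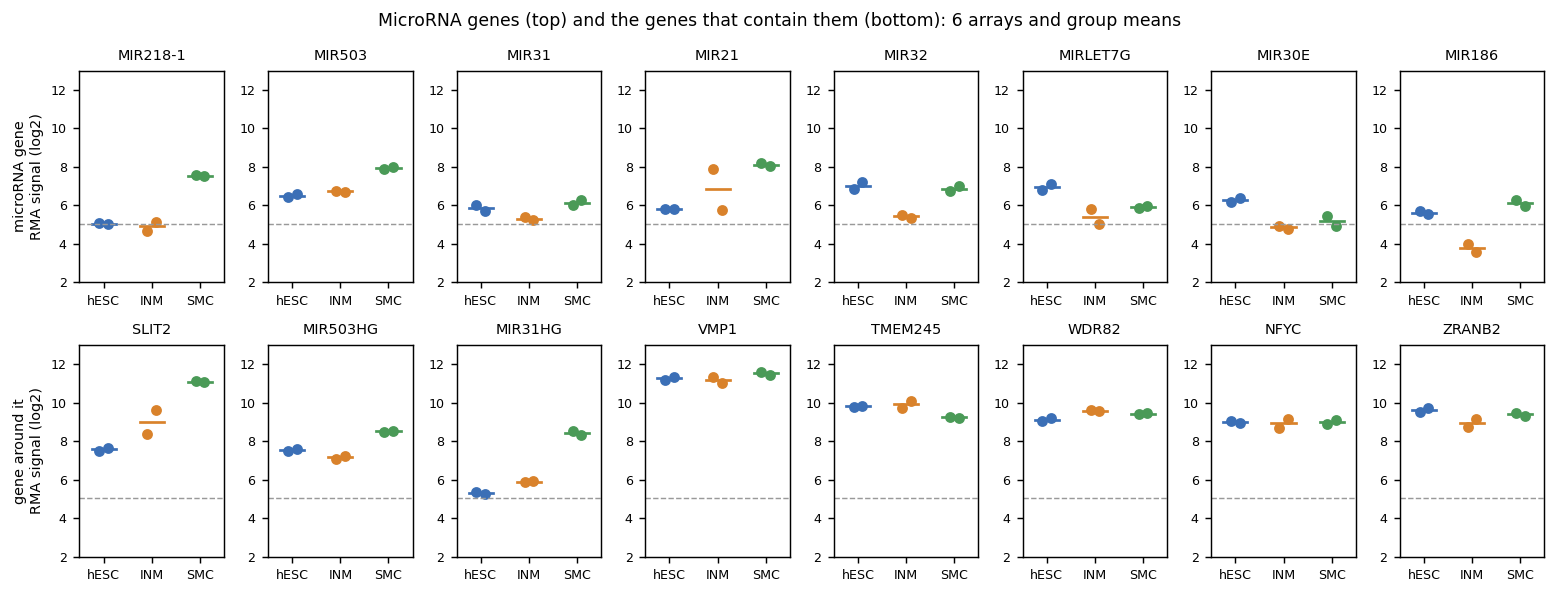
Log2 RMA signal of 8 microRNA genes (top row) and of the gene that contains each (bottom row). Points are single arrays of hESC, INM or SMC, bars are group means, and the dashed line marks 5.04, the lowest median of unnamed probe sets on any array. MIR218-1 and SLIT2 both stand highest in SMC (7.56 and 7.51, 11.13 and 11.07), whereas MIR32 dips in INM (5.50 and 5.36) and TMEM245 does not.

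The genes that process microRNAs were read from a list of 37, of which 36 were measured. In INM 4 rose (DICER1, AGO4, TENT2 and ADARB1), 6 fell (DGCR8, DDX17, HNRNPA1, TNRC6A, TNRC6C and TRIM71) and 26 were not called, with a median change of -0.03, where 18.9% of all genes were higher and 14.8% lower. From INM to SMC limma called 0 higher and 13 lower, with a median of -0.34, beside 2 higher and 18 lower at an unadjusted p under 0.05 and 9.94% and 11.1% of all genes called. In SMC against hESC 3 were higher (AGO3, TENT2 and ADARB1) and 16 lower, with 19.7% and 17.6% over all genes. The counts depended on the scaling: with the unnamed probe sets as the centre 25 were higher and 2 lower in INM, 0 and 20 in the step to SMC, and 6 and 6 between SMC and hESC. Of all genes 62.1% were then higher and 3.99% lower in INM, 6.04% and 27.1% in the step to SMC, and 35% and 8.9% against hESC. LIN28A, which holds back let-7 maturation, gave 12.10 and 12.08 in hESC, 10.39 and 11.76 in INM, while SMC had 6.46 and 6.21. It changed by -1.02 (adjusted p = 0.0950) in INM and fell by 4.74 (adjusted p = 6.6e-04) from INM to SMC. LIN28B gave 8.82 and 9.06, 9.27 and 9.97, and 7.02 and 6.48, a fall of 2.87 (adjusted p = 0.00110) from INM to SMC. Both LIN28 genes were lowest in SMC, and in INM they kept a mean signal far above that of SMC. TRIM71, a let-7 target and stem cell ubiquitin ligase, fell by 1.68 in INM and by 1.69 in SMC. The TRIM71 steps ended without hESC replicate 1 (adjusted p = 0.0505) and without SMC replicate 1 (adjusted p = 0.0768) or SMC replicate 2 (adjusted p = 0.0642), respectively. DICER1 rose by 0.48 in INM (adjusted p = 0.0272), a call that ended without either hESC array (adjusted p = 0.141 and 0.0904) or either SMC array (adjusted p = 0.0640). The INM calls of AGO4, ADARB1, DGCR8, DDX17, HNRNPA1 and TNRC6C ended without hESC replicate 2 (adjusted p from 0.0504 to 0.0978), and those of ADARB1, DGCR8, DDX17 and HNRNPA1 also without hESC replicate 1 (adjusted p from 0.0628 to 0.175). Those of ADARB1 and DGCR8 ended without either SMC array too (adjusted p = 0.0720 and 0.0577). The higher SMC signals of AGO3 and TENT2 against hESC ended without any 1 of the hESC or SMC arrays (adjusted p from 0.0765 to 0.139 and from 0.122 to 0.244).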

How the data were processed

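The authors deposited log2 expression values of 33297 probe sets on 6 arrays. Per the submitters' processing notes, the tools were RMA and limma, with no version; build and RMA settings: not given in the sources used here. Of the probe sets, 19460 carried 1 gene symbol, 1754 several and 12083 none; Entrez identifiers matched RefSeq GRCh38.p14 for 19429. The highest probe set per gene gave 18417 genes, tested without further normalization.

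Group means were fitted with limma 3.58.1 in R 4.3.3 (3 residual and 3.56 prior degrees of freedom), with two-sided tests, Benjamini-Hochberg adjustment over all genes, and calls at an adjusted p under 0.05. With 2 arrays against 2, exact permutation cannot reach a p below 0.333. In simulated data for the 18417 genes of INM versus hESC, 1.49%, 85.1% and 98.5% of genes changed by 0.5, 1 and 2 were recovered, and 11 of 134 calls were unchanged genes. Far fewer genes were changed in the simulation than the 6217 called in the data. The adjustment was therefore stricter there, and these recoveries do not measure those in the data. The number of arrays limits the precision.

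Members and lists were chosen with earlier results of these data known. Named members were up to 8 called genes per direction and comparison with the largest change, and called members of the stem cell, proliferation, muscle and mesenchymal lists. Their hosts and up to 4 processing genes per comparison were added; let-7, miR-200 and other genes outside this rule were named after their values were seen. Alternatives were other scalings, filters, weights and probe sets, a replicate block, 2-group fits and leaving out each array.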

Additional observations from a re-analysis of the deposited data

How the results depend on the processing

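Calls were kept under every alternative that tested them by 13 of 60 members lower in INM than in hESC, 9 of 22 higher in SMC than in INM, 7 of 11 higher and 7 of 30 lower in SMC than in hESC, and 0 of the 2 calls of MIR30A. With arrays centred on unnamed probe sets the counts of higher and lower members were 58 and 13 in INM versus hESC, 15 and 10 in SMC versus INM, and 27 and 10 in SMC versus hESC, with medians of 0.27, -0.11 and 0.16. The shares of all genes were 62.1% and 3.99%, 6.04% and 27.1%, and 35% and 8.9%, with medians of 0.53, -0.27 and 0.26. The processing genes then numbered 25 higher and 2 lower in INM, 20 lower in SMC versus INM, and 6 and 6 in SMC versus hESC. With the unnamed probe sets held at 0, an alternative added after seeing the data, the members numbered 12 and 24, 16 and 3, and 17 and 14, with medians of 0.02, 0.00 and 0.02; 41 passed the F test, against 63; and 12 processing genes were higher in INM and 9 lower in SMC versus hESC. Over all genes that setting called 36.4% higher and 6.7% lower, 7.17% and 17.9%, and 26.6% and 11.9%, in the same order of comparisons. Quantile normalization gave 2 members and 2 processing genes higher and 11 processing genes lower in INM, and 1 processing gene higher in each SMC comparison, as did centring on named genes in SMC versus INM (1). The low-signal filter, which tests fewer genes, gave 39 members lower in INM (37 of the 60 among them), 13 higher in SMC versus INM and 41 in the F test (39 of the 63 among them). With the replicate block, with group array weights or with the 2 compared groups alone, 0 members were lower in SMC versus INM; the last also gave 2 processing genes higher in INM and 7 lower in SMC versus INM. Deviations of equally numbered arrays from their group means had correlations of 0.07, -0.12 and -0.07 over all genes. With 2 arrays per group these values cannot tell whether the samples were paired. The block gave 53 lower members in INM.

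Leaving out 1 array gave 0 to 6 members higher and 21 to 62 lower in INM, 10 to 31 and 0 to 5 in SMC versus INM, 7 to 14 and 11 to 44 in SMC versus hESC, and 27 to 76 in the F test. Processing genes ranged over 1 to 10 and 2 to 10, 0 to 2 and 2 to 22, and 1 to 4 and 7 to 22. The unnamed centring moves all genes alike, so small changes turn sign; among the single genes followed through the alternatives and called in either setting, this was so in INM versus hESC for MIR125B1 (0.50), MIR31 (0.01), AGO1 (0.34), DDX17 (0.04), DGCR8 (0.12), MIR503HG (0.17), VMP1 (0.48) and XRN2 (0.43). Where a count moved, the cause was not tested, apart from the fewer genes or arrays of the filter and the leave-one-out fits. Signal over background is not given in the sources used here.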

Other observations

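The imprinted microRNA run of chromosome 14, expressed from the maternal copy, was measured by 15 members from MIR127 to MIR410. In INM versus hESC 0 rose and 1 fell (MIR299, adjusted p = 0.156 without hESC replicate 1 and 0.100 without hESC replicate 2), and 0 were called in SMC versus INM or SMC versus hESC by limma, beside 61, 23 and 41 of all 173 members and 33.8%, 21.0% and 37.2% of all genes. At an unadjusted p under 0.05 the run had 1, 2 and 0. The median changes of the run were -0.03, 0.08 and 0.02, and 12 of the 15 had every group mean under 5.04. Of 19 measured microRNAs of neural, liver, pancreas, blood and endothelial cells, 3 fell in INM (MIR122, MIR142 and MIR9-1; 14.8% of all genes), 1 rose from INM to SMC (MIR142; 9.94%), and 2 were lower in SMC than in hESC (MIR122 and MIR9-1; 17.6%), none of them kept when arrays were centred on unnamed probe sets, which called 10 of the 19 higher in INM. That centring called 62.1% of all genes higher in INM. The calls of MIR122, MIR142 and MIR9-1 ended in at least 1 fit with an array left out, with adjusted p from 0.0512 to 0.236.

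Over all members, 26 were lower in both INM and SMC than in hESC. Both calls use the same hESC arrays. Of all genes 14.8% were lower in INM and 17.6% in SMC, but the share lower in both was not counted. The hairpins ran from 63 to 119 bases with a median of 85, and Spearman's rho of the hairpin's GC content with the change was 0.08, -0.21 and -0.18 across genes that share the same arrays, given as a description.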
